A study of Mus musculus with 16 samples.

Results

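The genes described here encode proteins at the core of the spliceosome and their relatives. They are Sm proteins, some of the proteins specific to the U1 and U2 small nuclear ribonucleoproteins (snRNPs), most subunits of SF3A and SF3B, and LSm proteins. They were taken by symbol, as every listed gene whose name begins with Snrp, Sf3a or Sf3b or consists of Lsm and 1 or 2 digits, which gave 32 of 24063 genes. The rule itself uses no measured value. The samples are mouse embryos at the two-cell stage, and the question was how their transcripts differ when the embryo starts without maternal KDM1A, the histone demethylase also called LSD1. All mothers were superovulated. Control embryos (f/wt, 8 libraries) came from Kdm1a f/f females, in which both floxed alleles are intact. Embryos labelled Lsd1 mko/wt (here Δm/wt, 8 libraries) came from Kdm1a f/f females that also carried Zp3cre, a transgene in which the promoter of Zp3, a gene of the growing oocyte, drives the Cre recombinase that removes the first exon of Kdm1a. Fathers of both groups were wild-type B6D2F1 males, so every embryo inherited an intact paternal allele, and what Δm/wt embryos lack is the maternal supply and the maternal allele. A library was made from the polyadenylated RNA of 1 embryo, so that fewer cells and less RNA per cell cannot be told apart. Whether embryos of a group shared a mother was not stated, so p-values measure the spread between these embryos.

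Pre-mRNA splicing is carried out by snRNPs, particles of a small nuclear RNA and its proteins. In U1, U2, U4 and U5 the RNA is held by a ring of the proteins SmB, SmD1, SmD2, SmD3, SmE, SmF and SmG, which is closed around the RNA in the cytoplasm by the SMN complex before the particle returns to the nucleus. U1 recognises the 5′ splice site and U2, together with SF3A and SF3B, the branch point. A related ring, LSm2 to LSm8, sits on U6, and a ring that holds LSm1 in place of LSm8 acts in the cytoplasm on messenger RNAs that are to be decapped. In U7, which acts on the ends of histone messenger RNAs, LSm10 and LSm11 replace SmD1 and SmD2. Oocytes stop transcribing late in their growth, and the two-cell stage is when the mouse embryo begins to rely on transcripts of its own genome while stored maternal ones are degraded.

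Gene counts per library lay between 3212510 and 9337451 in f/wt and between 4049168 and 14334244 in Δm/wt, and the member genes took 0.198 to 0.557% of them in f/wt and 0.239 to 0.762% in Δm/wt. The libraries f/wt 2 and f/wt 3 were nearly alike in their counts (a chi-square of 1.89 per gene on average, where the other 55 pairs of libraries within a group had 45.6 to 366). They were summed as sample 2+3 and counted once, giving 7 controls and 8 Δm/wt samples. Kdm1a itself had 8 to 188 counts in f/wt libraries and 0 to 26 in Δm/wt libraries, but these counts include exons outside the deleted one and the paternal allele and do not check the deletion. Summed oocyte markers (5 of 5 detected: Zp3, Gdf9, Bmp15, Oosp1 and Zp2) were at 1555 to 3125 CPM (counts relative to the library total after TMM scaling) in controls and 8728 to 18232 CPM in Δm/wt, and two-cell markers (5 of 5 detected) at 132 to 1367 and 43.5 to 817 CPM. Of the follicle markers of cumulus and granulosa cells 4 of 8 were at 0 everywhere, Foxl2 and Fshr among them, and the rest summed to 4.01 to 181 and 29.0 to 146 CPM. Myeloid markers (10 of 10 detected) summed to 2.82 to 24.5 CPM in the controls and 11.6 to 2039 CPM in Δm/wt, and of 5 red blood cell markers 4 were at 0 and the other reached 1.95 CPM. The part of these differences in the results below was not tested.

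Snrpn, the brain form of the Sm protein B, had no count in any of the 16 libraries, and neither did Snurf, whose exons overlap it. Where reads can be assigned to a gene, a count of 0 allows a level of up to 0.209 to 0.934 CPM, depending on the library (3 counts). Snurf lies on the same strand as Snrpn, and how reads shared by both were counted is not given. Their counts of 0 therefore set no upper limit on the level of Snrpn. The other 31 members had counts, passed the filter (the 60% of detected genes with the highest summed counts, 11344 genes) and were tested. Genes were called at an adjusted p under 0.05 in edgeR's quasi-likelihood test, with CPM scaled by TMM factors. Of the 31 genes, 8 were higher and 8 lower in Δm/wt embryos, where 21.9% of all genes tested were higher and 22.8% lower. In 3 of them (Snrpb2 and Sf3b3, higher, and Snrpa, lower) the ranges of the groups did not overlap, as in 16.2% of all genes tested. Called genes thus made up 51.6% of the tested members and 44.7% of all genes tested. The median log2 fold change of the members was -0.04 and that of all genes 0.04, and the median absolute log2 fold change was 1.65 and 1.60. As a list the members were close to all genes tested, and calls in both directions occurred within the Sm ring, within the U1 and U2 proteins and within SF3.

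**Figure D1:**
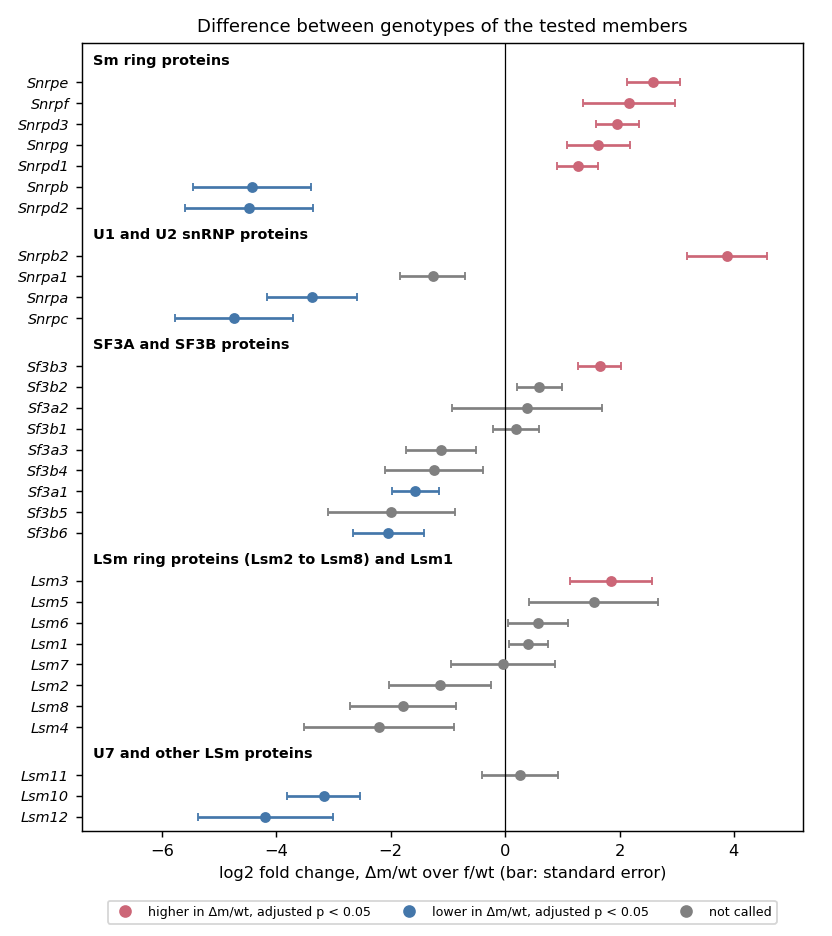
Log2 fold change (Δm/wt over f/wt, x axis) of the 31 tested genes, grouped by particle, with bars of 1 standard error; red genes were higher and blue genes lower at an adjusted p under 0.05, and grey genes were not called. Each group of proteins except the LSm2 to LSm8 ring with LSm1 holds called genes on the lower side, from -1.57 (Sf3a1) to -4.74 (Snrpc).

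The balance of calls depended on the scaling. Scaling to library totals gave 5 higher and 10 lower members, where 1893 and 3117 of the 11344 genes tested were higher and lower. It moved the median of all genes to -0.32. Scaling to Hprt, Gapdh and Ppia gave 10 higher and 6 lower members, where 3636 and 1446 of all genes were, and moved that median to 0.86. Which scaling comes closest to the amounts in an embryo was not tested. The median of the members was therefore also set against the median of all genes. It differed from that median by -0.08 with TMM, -0.10 with library totals and -0.23 with the 3 reference genes. The same difference was -0.66 in limma-voom. No called member changed direction under any of the 28 alternatives tried, and 7 of the 16 kept their call in all of them: Snrpb, Snrpd3, Snrpe, Snrpa, Snrpb2, Snrpc and Lsm12. In embryos 4 to 8 alone, which the study's table of read numbers sets apart from embryos 1 to 3, 6 of 30 tested members were higher and 6 lower, where 28.9% of all genes were called. In embryos 1 to 3 alone (2 controls and 3 Δm/wt samples, a comparison added after the data were seen), 5 of 31 members were higher and 9 lower, where 34.8% of all genes were called. There Snrpd1 (1.05, adjusted p = 0.168), Sf3b3 (1.15, 0.0933) and Lsm10 (-2.37, 0.0527) lost the call that they kept in all other alternatives, and Sf3b5, Lsm4 and Lsm8 were called lower. Without f/wt 8 the number of higher members was 5, where 2178 of 11311 genes tested were higher. The number without overlap was 5 without f/wt 2+3 (17.3% of all genes tested) or without Δm/wt 1 (18.6%), and 6 without Δm/wt 5 (17.5%).

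The Sm ring split. Transcripts for 5 of its proteins were higher in Δm/wt embryos and those for SmB and SmD2 were lower, so all 7 tested ring genes were called. Over all genes tested the share called was 44.7%. SmD1 binds SmD2, and SmD3 binds SmB, as pairs before the ring is closed, so that each lowered gene encodes the partner of a raised one. In the values below, f/wt samples are given in the order 1, 2+3, 4, 5, 6, 7 and 8 and Δm/wt embryos in the order 1 to 8.

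Snrpe, which encodes SmE (chr1:133603871-133610280 in mm10, minus strand), was at 220.4, 355, 103, 107, 177, 167 and 93.4 CPM in the controls and at 717, 1850.2, 1166, 1097, 265, 519, 495 and 2322 CPM in Δm/wt. Only Δm/wt 5 lay within the range of the controls, below f/wt 2+3. The mean rose from 175 ± 92.1 CPM (SD, n = 7) to 1054 ± 716 CPM (n = 8), with a log2 fold change of 2.59 ± 0.46 (SE) and an edgeR adjusted p of 0.000161. Snrpd3, which encodes SmD3 (chr10:75518042-75535440, plus strand), was at 138, 249, 93.0, 120.2, 107, 155 and 95.9 CPM in the controls and 566, 684, 515, 938, 120.2, 426, 396 and 621 CPM in Δm/wt. Again every Δm/wt embryo but the fifth was above all controls. Its log2 fold change was 1.96 ± 0.38 (adjusted p = 0.000375). Its exons overlap those of Gucd1 on the opposite strand, and since the sources do not say that counting used strand, reads there cannot be assigned with certainty.

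Snrpd1, which encodes SmD1 (chr18:10617796-10628230, plus strand), was at 255, 546, 86.2, 172, 339, 293 and 275 CPM in the controls and 574, 1079, 783, 858, 349.8, 589, 589 and 607 CPM in Δm/wt. The groups overlapped through Δm/wt 5 and the high control f/wt 2+3, and the log2 fold change was 1.27 ± 0.36 (adjusted p = 0.00701). Snrpg, which encodes SmG (chr6:86371540-86378902, plus strand), was the most abundant member in reads. It was at 457, 802, 324, 358, 1206, 692 and 93.2 CPM in the controls and 1348, 1156, 813, 3045, 922, 1586, 191 and 4846 CPM in Δm/wt. Here 4 Δm/wt embryos (2, 3, 5 and 7) lay within the control range and Δm/wt 4 and 8 were the highest samples of all. The log2 fold change was 1.63 ± 0.55 (adjusted p = 0.0209). The call was lost under 6 of 28 alternatives, among them the fits of embryos 1 to 3 (0.85, adjusted p = 0.225), without Δm/wt 8 (1.2, adjusted p = 0.0643), without both Δm/wt 1 and 8 (adjusted p = 0.0785), without f/wt 8 (1.26, adjusted p = 0.0563) and with library totals (1.19, adjusted p = 0.0686). Snrpf, which encodes SmF (chr10:93583029-93589658, minus strand), was the rarest ring transcript among the raised ones.

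Snrpf was at 6.06, 2.68, 4.24, 0.968, 5.30, 6.17 and 0.388 CPM in the controls and 16.6, 25.4, 27.6, 21.2, 2.38, 20.8, 1.72 and 16.6 CPM in Δm/wt, where embryos 5 and 7 were as low as the controls and the other 6 were above all of them. The log2 fold change was 2.16 ± 0.80 (adjusted p = 0.0334), and the call was lost under 11 of 28 alternatives, with adjusted p up to 0.251 in embryos 4 to 8. Among these were fits that left out a single sample, namely control 2+3, 4, 5 or 8 or Δm/wt embryo 2 or 3, with log2 fold changes of 1.78 to 2.19. Exons of Snrpf overlap Ccdc38 and 4933408J17Rik on the opposite strand.

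**Figure D2:**
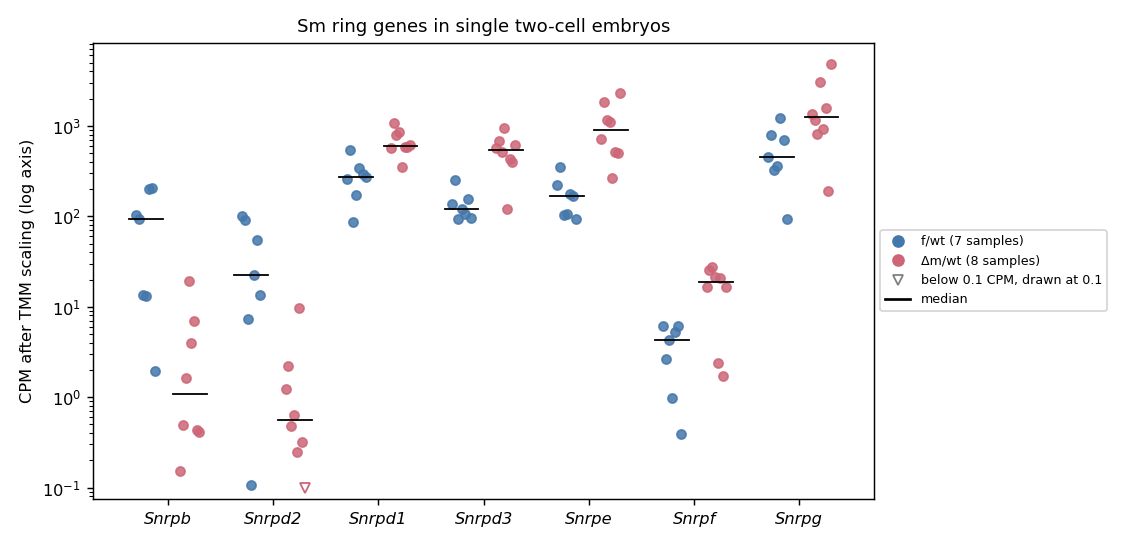
CPM after TMM scaling (log axis) of the 7 detected Sm ring genes, with a point for each sample and a line at the group median; open triangles stand for values under 0.1 CPM. Snrpb and Snrpd2 lay lower and the other genes higher in Δm/wt embryos, and the f/wt points of Snrpb and Snrpd2 were spread over more than the points of Snrpd1, Snrpd3 or Snrpe.

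Both lowered ring genes were uneven among control embryos. Snrpb, which encodes SmB (chr2:130171636-130179364, minus strand), had a lowest, median and highest value of 1.94, 94.4 and 203 CPM in the controls and 0.154, 1.07 and 19.2 CPM in Δm/wt. Among controls f/wt 1, 2+3, 6 and 7 were at 102, 94.4, 202 and 203 CPM, whereas f/wt 4, 5 and 8 were at 13.5, 13.2 and 1.94 CPM, within the Δm/wt range set by Δm/wt 4. The means were 90.1 ± 86.6 and 4.16 ± 6.52 CPM, a log2 fold change of -4.42 ± 1.03 (adjusted p = 0.00182), and -5.45 without Δm/wt 4. Snrpd2, which encodes SmD2 (chr7:19149838-19152726, plus strand), had 0.108, 22.2 and 102 CPM in the controls and 0, 0.56 and 9.69 CPM in Δm/wt as its lowest, median and highest values. The lowest control was f/wt 5, below 7 of the 8 Δm/wt embryos, and the highest Δm/wt embryo was the sixth. The log2 fold change was -4.48 ± 1.12 (adjusted p = 0.00298), -5.83 without Δm/wt 6, and -3.16 with an adjusted p of 0.13 in embryos 4 to 8.

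Within each library, the reads of Snrpb and Snrpd2 were set against those of all 7 ring genes, a ratio on which the scaling between libraries has no effect. They made up 1.73 to 16.5% of the ring reads in f/wt samples (median 8.67%) and 0.0049 to 0.53% in Δm/wt samples (median 0.0606%). The ranges of this share did not overlap, although those of both genes in CPM did. The lowest controls were numbers 5 (1.73%), 8 (2.71%) and 4 (3.30%), and the highest Δm/wt samples were the sixth (0.53%) and the fourth (0.33%). The summed level of the 7 genes was 573 to 2140 CPM in the controls and 1664 to 8413 CPM in Δm/wt, overlapping only through the 2 lowest Δm/wt embryos, 5 and 7. Both genes were put together because they fell, so this share is a description and has no test.

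Among transcripts for the proteins of U1 and U2 there were also calls in both directions. Both U1 members fell, and of the 2 U2 genes that encode the partners U2-A′ and U2-B″, which bind the same stem-loop of the U2 RNA, the U2-B″ gene rose and the U2-A′ gene was not called. Snrnp70, which encodes U1-70K, is outside the symbol rule and was named after its values were seen. It was not called (log2 fold change -2.26 ± 0.96, edgeR adjusted p = 0.0591). Snrpc encodes U1-C, a zinc finger protein that steadies the pairing of U1 with the 5′ splice site (chr17:27840087-27851967, plus strand). Its lowest, median and highest values were 10.5, 268 and 488 CPM in the controls and 0, 4.36 and 41.3 CPM in Δm/wt. As for Snrpb, f/wt 4, 5 and 8 were low (37.6, 10.5 and 16.5 CPM) and the other controls were at 268 CPM or more, and only Δm/wt 1 reached the low controls. Its log2 fold change of -4.74 ± 1.02 (adjusted p = 0.000966) had the largest size of all members, and was -5.96 without Δm/wt 1.

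Snrpa encodes U1-A, which binds a stem-loop of the U1 RNA through an RNA recognition motif (chr7:27187006-27196271, minus strand). It was at 69.8, 55.8, 97.0, 23.2, 32.0, 26.3 and 25.6 CPM in the controls and at 4.78, 9.38, 3.69, 7.50, 3.38, 0.138, 7.31 and 0 CPM in Δm/wt. Every Δm/wt embryo lay below every control, with the gap between 9.38 and 23.2 CPM. The means were 47.1 ± 28.2 and 4.52 ± 3.42 CPM, a log2 fold change of -3.38 ± 0.79 (adjusted p = 0.0019). Its exons overlap BC024978 on the opposite strand.

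Snrpb2, which encodes U2-B″ (chr2:143063069-143072052, plus strand), showed the largest rise among the members. It was at 10.6, 37.3, 19.6, 16.7, 0.616, 45.5 and 33.2 CPM in the controls and at 190.0, 722, 903, 302, 46.8, 149.6, 161 and 279 CPM in Δm/wt. The groups did not overlap, but the margin was small, between f/wt 7 (45.5 CPM) and Δm/wt 5 (46.8 CPM). The means were 23.3 ± 15.9 and 344 ± 303 CPM and the log2 fold change 3.88 ± 0.71 (adjusted p = 0.000211). Snrpa1, which encodes its partner U2-A′, was at 91.0 ± 96.8 CPM in f/wt, with 299.8 CPM in f/wt 6 alone, and at 37.8 ± 20.5 CPM in Δm/wt. Its log2 fold change of -1.27 ± 0.57 was not called (adjusted p = 0.0731), but was without f/wt 5 (-1.47, adjusted p = 0.031), without f/wt 8 (-1.61, adjusted p = 0.0279) and with library totals (-1.57, adjusted p = 0.0331). U2-B″ and U1-A are close relatives in protein sequence, and their transcripts parted without overlap in opposite directions.

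Promoter windows are shown for 2 genes that rose and 2 that fell, 300 bases each from RefSeq (build GRCm38.p6), running from 250 bases before the start of transcription, and a window was found for 25 of the 32 members. They show what the raised and the lowered genes hold next to their starts. Capitals mark matches to 5 short motifs on either strand, so a match on the other strand is printed as its reverse complement (the TATA box, the E-box, the core of ETS factor sites, the GC box and the NRF1 site), whose letters are given with their shares in the next paragraph. Overlapping matches run together.
Snrpb2 (chr2:143062819-143063118, plus strand): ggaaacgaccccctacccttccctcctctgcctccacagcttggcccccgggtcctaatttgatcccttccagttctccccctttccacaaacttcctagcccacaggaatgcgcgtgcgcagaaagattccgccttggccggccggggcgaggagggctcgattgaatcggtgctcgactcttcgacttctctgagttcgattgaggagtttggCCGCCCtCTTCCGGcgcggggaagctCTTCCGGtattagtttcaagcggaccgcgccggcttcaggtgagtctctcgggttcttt
Snrpe (chr1:133610231-133610530, minus strand): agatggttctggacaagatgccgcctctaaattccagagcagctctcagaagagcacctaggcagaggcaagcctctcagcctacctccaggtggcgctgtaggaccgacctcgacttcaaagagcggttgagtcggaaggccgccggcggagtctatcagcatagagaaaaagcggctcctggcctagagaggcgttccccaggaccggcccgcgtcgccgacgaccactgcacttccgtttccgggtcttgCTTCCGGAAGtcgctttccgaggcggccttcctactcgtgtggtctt
Snrpa (chr7:27196222-27196521, minus strand): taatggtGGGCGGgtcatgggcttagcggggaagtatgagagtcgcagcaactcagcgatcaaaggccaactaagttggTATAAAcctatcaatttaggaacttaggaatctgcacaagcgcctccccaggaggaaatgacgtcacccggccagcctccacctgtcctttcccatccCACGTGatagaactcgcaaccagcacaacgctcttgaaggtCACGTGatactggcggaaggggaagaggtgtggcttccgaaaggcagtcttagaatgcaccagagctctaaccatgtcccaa
Snrpc (chr17:27839837-27840136, plus strand): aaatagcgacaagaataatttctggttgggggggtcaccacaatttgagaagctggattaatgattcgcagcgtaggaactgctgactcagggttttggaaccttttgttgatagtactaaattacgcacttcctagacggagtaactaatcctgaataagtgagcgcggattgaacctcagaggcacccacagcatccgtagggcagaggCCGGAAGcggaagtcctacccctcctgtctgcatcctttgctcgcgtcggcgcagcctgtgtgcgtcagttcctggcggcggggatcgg

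The ETS core CCGGAAG was held by the windows of Snrpb2, Snrpe and Snrpc but not of Snrpa. It was found in 11 of the 25 member windows (44.0%), against 19.1% of 8612 windows of tested genes and 12.0% of all 16822 windows. Among members it was in 4 of 7 windows of genes that rose and 3 of 6 of genes that fell. The GC box GGGCGG was in 68.0% of member windows and 62.8% of those of tested genes, in 3 of 7 of the raised and 5 of 6 of the lowered genes. The TATA box TATAAA was in 2 member windows (8.00%, against 7.58%), those of Snrpa and Sf3b3, the E-box CACGTG only in that of Snrpa (4.00%, against 10.4%), and the NRF1 site GCGCATGC in 3 (12.0%, against 5.71%). The median GC content was 57.3% in the members and 60.7% in tested genes. A match says that the letters are there, and none of these shares was tested.

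Of the 9 members of SF3A and SF3B, 1 rose, 2 fell and 6 were not called. Of all genes tested 44.7% were called. Phf5a, which also encodes an SF3B subunit, is outside the symbol rule and is counted below with other spliceosome proteins. It rose from 102 ± 26.3 to 235 ± 108 CPM (log2 fold change 1.21 ± 0.34, edgeR adjusted p = 0.00696), and was named after its values were seen. Sf3b3, which encodes a scaffold of SF3B built of β-propellers (chr8:110810492-110846803, minus strand), was at 84.8, 93.2, 39.6, 45.8, 39.9, 34.4 and 76.0 CPM in the controls and at 174, 226, 179.7, 99.1, 163, 169.9, 114 and 360.4 CPM in Δm/wt. The groups did not overlap, and the closest samples were f/wt 2+3 and Δm/wt 4. Its means were 59.1 ± 24.6 and 186 ± 80.8 CPM, a log2 fold change of 1.65 ± 0.38 (adjusted p = 0.00161). It shares exonic sequence with Cog4 on the opposite strand. Sf3a1, a subunit of SF3A that contacts U1 as well (chr11:4160354-4182541, plus strand), had 101, 179.7 and 277 CPM in the controls and 26.8, 46.1 and 128 CPM in Δm/wt as its lowest, median and highest values. Δm/wt 2 and 3 overlapped the lower controls and the other 6 lay below all of them. The log2 fold change was -1.57 ± 0.41 (adjusted p = 0.00461), and the call was lost in embryos 1 to 3 (-0.14, adjusted p = 0.848) and when the 3 reference genes set the scaling (-0.84, adjusted p = 0.17).

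Sf3b6, which encodes the small subunit that lies at the branch point adenosine (chr12:4817608-4827659, plus strand), had 59.2, 92.9 and 185 CPM in the controls and 0.25, 25.1 and 71.0 CPM in Δm/wt. Only Δm/wt 4 lay within the control range. The log2 fold change was -2.04 ± 0.62 (adjusted p = 0.0116), -1.85 with an adjusted p of 0.12 in embryos 4 to 8, and -1.23 (adjusted p = 0.135) with the 3 reference genes.

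The other SF3 members gave no call. Sf3b1, which encodes the large subunit that clamps the branch site, was the SF3 transcript with the most reads in both groups, 358 ± 120.4 and 408 ± 253 CPM (log2 fold change 0.19 ± 0.40). Sf3b2, whose product binds that of Sf3b4, was at 64.4 ± 20.2 and 97.6 ± 36.3 CPM (0.60 ± 0.39), and Sf3b4 at 14.9 ± 12.6 and 6.33 ± 4.63 CPM (-1.24 ± 0.86). Sf3a3 was at 69.1 ± 30.9 and 31.7 ± 28.7 CPM (-1.12 ± 0.61; -1.55 and adjusted p = 0.0465 without Δm/wt 4). The edgeR adjusted p of these 4 genes lay between 0.138 (Sf3a3) and 0.721 (Sf3b1), and the standard error of Sf3b4 was the widest.

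Sf3b5, which encodes the smallest SF3B subunit, was at 33.1 ± 48.1 and 8.36 ± 12.8 CPM (-1.99 ± 1.11), and f/wt 2+3 (136 CPM) and Δm/wt 8 (38.1 CPM) were the highest samples of their groups. Without Δm/wt 8 it was called (-3.01, adjusted p = 0.038), and in embryos 4 to 8 its sign turned (0.17). Sf3a2 was scarce, at 2.72 ± 5.01 and 3.57 ± 4.22 CPM (0.38 ± 1.31), with exons over Plekhj1 on the opposite strand.

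**Figure D3:**
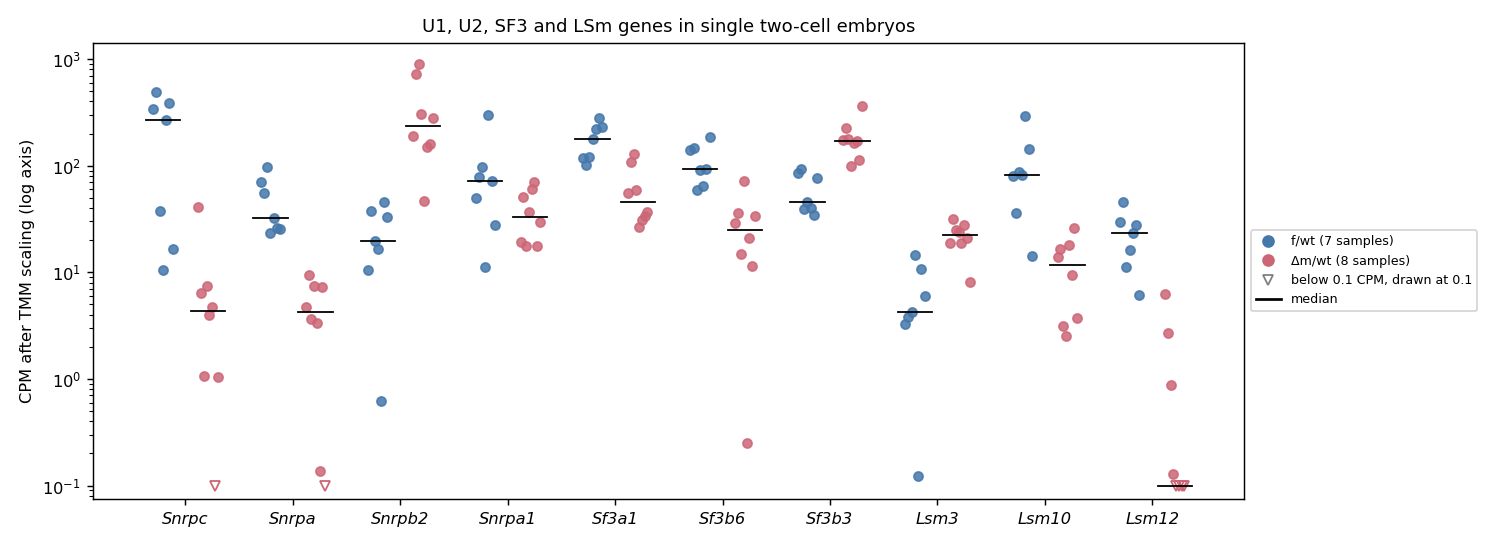
CPM after TMM scaling (log axis) of 10 genes of U1, U2, SF3A, SF3B and the LSm proteins, with a point for each sample and a line at the group median; open triangles and a line at 0.1 stand for values under 0.1 CPM. Snrpa, Snrpb2 and Sf3b3 show no overlap between the groups.

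Of the 8 genes of the LSm rings only Lsm3 was called, where 44.7% of all genes tested were called. Lsm3, present in both rings (chr6:91516035-91522620, plus strand), was at 3.24, 3.84, 4.24, 14.4, 0.123, 10.7 and 5.94 CPM in the controls and at 18.8, 31.8, 25.0, 23.6, 19.0, 27.8, 20.8 and 8.11 CPM in Δm/wt. Its levels were low, and every Δm/wt embryo except the eighth was above every control. The log2 fold change was 1.85 ± 0.72 (adjusted p = 0.0412), close to the threshold: the call was lost under 13 of 28 alternatives, among them those that left out control 1, 2+3, 4 or 8 or Δm/wt embryo 2, 3, 4, 6 or 7, in which the log2 fold change stayed between 1.71 and 1.87. In embryos 4 to 8 it was 1.49 (adjusted p = 0.292).

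The 2 genes that tell the rings apart, Lsm1 of the decay ring and Lsm8 of the U6 ring, were both without a call. Lsm1 was at 129 ± 47.5 CPM in the controls and 171 ± 56.6 CPM in Δm/wt, with a log2 fold change of 0.40 ± 0.34 and the smallest standard error of all members. Lsm8 was at 78.1 ± 56.7 and 22.7 ± 25.5 CPM (-1.78 ± 0.93), with 78.4 CPM in Δm/wt 8 and 0 in Δm/wt 5 and 7. Without Δm/wt 8 it was called (-2.40, adjusted p = 0.0478).

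Of the other subunits that both rings share, Lsm2, Lsm4, Lsm5 and Lsm7 varied widely between embryos. Lsm6 did so less among controls (coefficient of variation 0.336). Lsm2 was at 18.0 ± 22.6 and 8.16 ± 6.53 CPM (-1.14 ± 0.89), Lsm4 at 13.2 ± 16.8 and 2.86 ± 4.36 CPM (-2.20 ± 1.31), and Lsm7 at 22.6 ± 23.6 and 22.0 ± 20.5 CPM (-0.04 ± 0.91). Lsm5 was at 5.55 ± 4.31 and 16.3 ± 27.2 CPM (1.55 ± 1.13), with 80.3 CPM in Δm/wt 4, and Lsm6 at 48.0 ± 16.1 and 71.8 ± 52.7 CPM (0.58 ± 0.52). The adjusted p of these 7 uncalled ring genes lay between 0.121 (Lsm8) and 0.976 (Lsm7).

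In U7, the 2 LSm proteins did not go together. Lsm10 (chr4:126096653-126098584, plus strand) had 14.3, 81.3 and 289.7 CPM in the controls and 2.54, 11.6 and 25.9 CPM in Δm/wt as its lowest, median and highest values. The overlap came from f/wt 8, since every other control was at 36.0 CPM or more and no Δm/wt embryo was above 25.9 CPM. Its log2 fold change was -3.17 ± 0.64 (adjusted p = 0.000546). Lsm11, its partner in the U7 ring, was at 15.4 ± 10.7 CPM in the controls and 18.5 ± 7.19 CPM in Δm/wt (0.26 ± 0.66, adjusted p = 0.764). Lsm12, which carries an LSm domain but belongs to neither ring, fell from 22.9 ± 13.3 to 1.25 ± 2.25 CPM (-4.19 ± 1.17, adjusted p = 0.00684). It had no count in Δm/wt 5, 6, 7 and 8, and Δm/wt 1, at 6.32 CPM, was the only embryo above the lowest control (f/wt 8, 6.07 CPM). Without Δm/wt 1 the log2 fold change was -5.47.

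Per kilobase of exon, the order of the members changed between the groups for called and uncalled genes alike. In f/wt the most abundant were Snrpg (532 ± 350.1 CPM per kb), Snrpe (347 ± 183), Snrpd1 (327 ± 168) and Snrpc (291 ± 261), whose spreads overlap. In Δm/wt they were Snrpe (2095 ± 1424 CPM per kb), Snrpg (1648 ± 1424), Snrpd1 (791 ± 258), Snrpd3 (176 ± 78.4) and Snrpb2 (167 ± 147). Snrpb2 went from place 23 of 31 to place 5, Snrpd3 from 13 to 4 and Sf3b3 from 21 to 9. Snrpc went from place 4 to 21, Snrpb from 8 to 23, Lsm10 from 5 to 19 and Snrpd2 from 17 to 30. Among uncalled genes Lsm5 went from place 24 to 11 and Lsm8 from 6 to 14. By group means per length, the lowered ring gene Snrpb was level with Snrpd3 or above it in f/wt (77.6 ± 74.6 and 45.1 ± 17.9 CPM per kb, within their spread) and far below it in Δm/wt (3.58 ± 5.61 and 176 ± 78.4). The f/wt mean of Snrpb hides low values in f/wt 4, 5 and 8 (13.5, 13.2 and 1.94 CPM). Reads came mostly from the ends of the transcripts, so levels per length are approximate, above all for Sf3b5, whose annotated exons are longer than its span in the count files.

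**Figure D4:**
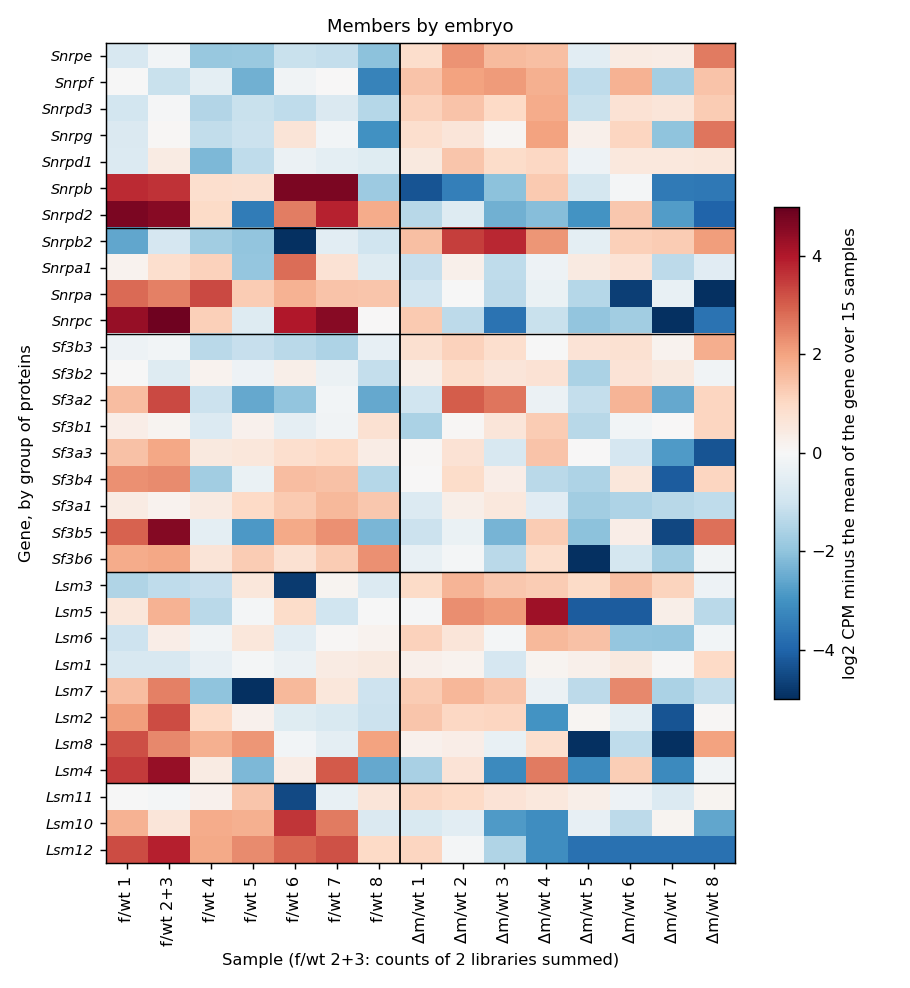
Log2 CPM of each tested gene (rows, in groups parted by lines) in each sample (columns), minus the mean of the gene over the 15 samples; red is above and blue below that mean, and the colour scale ends at 5. The f/wt samples 1, 2+3, 6 and 7 are red for Snrpb, Snrpd2 and Snrpc, whereas f/wt 4, 5 and 8 are paler or blue in these genes, and Δm/wt 5 and 7 hold the most blue cells of their group.

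Embryos of the same genotype differed from each other across the members. Among controls f/wt 2+3 had the highest value for 14 of the 31 genes and f/wt 8 the lowest for 10, and f/wt 4 and 5 each lay above the median of their group for 6. The controls f/wt 4, 5 and 8 were together the lowest for 10 of the 31 genes: Snrpb, Snrpc, Snrpd2, Snrpe, Snrpg, Sf3a3, Sf3b4, Sf3b5, Lsm7 and Lsm12. These controls were picked out after their values were seen, so this is a description. In Δm/wt, embryo 7 was lowest for 11 genes and embryo 5 for 10, while embryo 2 was above the median of its group for 28. Where samples of either group tied for the lowest value, only the first in order was counted. Embryo 5 stood at the edge of the raised genes: it was the lowest Δm/wt sample for Snrpb2, Snrpe, Snrpd1 and Snrpd3. The median coefficient of variation of the members was 0.682 among controls and 0.757 among Δm/wt embryos, against 0.719 and 0.774 over all genes tested.

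The 8 raised genes lay on 6 chromosomes, and so did the 8 lowered ones. Merged exons had a median of 0.958 kb in raised, 1.3 kb in lowered and 1.92 kb in uncalled members. Because the authors kept uniquely placed reads, transcripts with near-identical copies elsewhere can lose reads. Of the 16 called genes, 11 matched another annotated gene over at least 100 bases at 95% identity or more. The only match of Snrpd3 was Gucd1 and that of Sf3b3 was Cog4. These overlap them on the opposite strand and are not copies elsewhere, and the same holds for BC024978 at Snrpa and for Ccdc38 and 4933408J17Rik at Snrpf. For 8 genes a match was a pseudogene, on both sides of the comparison (Snrpd1, Snrpe, Snrpf and Snrpg among the raised, Snrpa, Snrpc, Snrpd2 and Lsm12 among the lowered). Snrpc had 3 such pseudogenes, Snrpd2 had 2 and Snrpe had 1, Snrpert. Snrpb, Snrpb2, Sf3a1, Sf3b6 and Lsm10 had no match of this kind.

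Genes that work with these proteins were counted from lists of non-members. Of 39 tested genes of other spliceosome proteins, 4 were higher and 15 lower in Δm/wt embryos, against 21.9% and 22.8% of all genes tested, with a median log2 fold change of -0.78. Snrnp35 (-5.71 ± 1.12, adjusted p = 0.000396) and Snrnp25 (-3.60 ± 0.78), both of the U11/U12 snRNP of the minor spliceosome, fell, as did Rnpc3, which binds U12 in that particle (-3.74 ± 0.85). Snrnp27, of the U4/U6.U5 tri-snRNP, rose (3.70 ± 0.41), from 45.0 ± 17.3 to 584 ± 274 CPM with no overlap between the groups. With scaling to Hprt, Gapdh and Ppia the list had 6 higher and 9 lower genes (3636 and 1446 of all 11344 genes tested). With library totals it had 2 and 18 (1893 and 3117 of all genes tested). In embryos 4 to 8 the numbers were 2 and 14, where 28.9% of all genes were called in either direction.

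Genes for the assembly of snRNPs were also counted. Of 19 genes of the SMN complex, the methylosome and the cap and import factors, 11 were lower and 1 was higher (22.8% and 21.9% of all genes tested), with a median log2 fold change of -2.11. With the 3 reference genes 7 were lower and 2 higher (1446 and 3636 of 11344 genes tested). Ddx20, the helicase of the SMN complex, was at 116 ± 31.9 CPM in the controls and 2.41 ± 2.95 CPM in Δm/wt (-5.56 ± 0.77, adjusted p = 1.37e-05). Gemin5, which recognises the RNA that the ring is put on, fell from 101 ± 31.03 to 4.11 ± 3.46 CPM (-4.62 ± 0.67), and Gemin2, which holds most of the Sm proteins for assembly, from 29.5 ± 23.9 to 1.31 ± 1.55 CPM (-4.47 ± 1.07). Ncbp1, the large subunit of the nuclear cap-binding complex, fell from 104 ± 27.6 to 2.84 ± 3.56 CPM (-5.19 ± 0.73), whereas its small partner Ncbp2 was at 223 ± 74.3 and 241 ± 108 CPM and was not called (0.12 ± 0.36). Smn1, which encodes the SMN protein itself, was the gene that rose, from 25.4 ± 16.1 to 136 ± 106 CPM (2.42 ± 0.67, adjusted p = 0.00647), and Gemin6 (0.27 ± 0.61) and Gemin7 (0.63 ± 0.43), of the same complex, were not called. Smn1 and Gemin6 were named after their values were seen. The groups did not overlap for 6 of the 19 genes, Ddx20, Gemin5 and Ncbp1 among them, where 16.2% of all genes tested did not overlap. Leaving out f/wt 2+3 gave 8 lower genes in this list (2308 of 11292 genes tested). Embryos 4 to 8 gave 8 lower and 0 higher (1675 and 1465 of 10855 genes tested).

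Of 10 tested decapping partners of the LSm1 ring, 4 were higher and 0 lower, against 21.9% and 22.8% of all genes tested. DESeq2 gave 4 higher and 1 lower (2892 and 3037 of 11344 genes tested), and limma-voom 5 and 3 (2907 and 2996). Dcp1a, the activator of the decapping enzyme, rose from 74.9 ± 43.9 to 943 ± 561 CPM (3.65 ± 0.48, adjusted p = 8.50e-06), and Dcp2, the enzyme itself, from 80.9 ± 44.0 to 345 ± 242 CPM (2.09 ± 0.43), both without overlap. Over all genes tested, 16.2% did not overlap. Edc4 (1.95 ± 0.67) and Lsm14b (1.70 ± 0.54) were also called, but lost their calls with library totals. Edc4 also lost it without f/wt 8, without Δm/wt 2 and in embryos 4 to 8. Lsm14b also lost it with limma-voom, in embryos 1 to 3 and with the embryo number as a replicate block. Of the 6 genes not called, Xrn1 (-2.10 ± 0.94), Edc3 (-2.77 ± 1.39) and Ddx6 (-1.50 ± 0.86) had negative log2 fold changes. Those of Patl1 (0.68 ± 0.50), Patl2 (2.15 ± 1.13) and Lsm14a (0.74 ± 0.36) were positive. Library totals left 2 higher genes and 1 lower (1893 and 3117 of all genes tested). Of 8 partners of U7 in the processing of histone messenger RNAs, 2 were higher and 1 lower, against 21.9% and 22.8% of all genes tested. Slbp, which binds the stem-loop of these messenger RNAs, rose from 598 ± 551 to 3394 ± 2766 CPM (2.51 ± 0.60). Cpsf2 rose (1.80 ± 0.36), and Cstf2t fell from 173 ± 86.3 to 2.34 ± 3.04 CPM (-6.19 ± 0.75, adjusted p = 3.59e-06). The other 5 genes were not called. Among them Cstf2 was at 34.7 ± 12.3 CPM in the controls and 36.2 ± 20.1 CPM in Δm/wt (0.06 ± 0.47), and Casp8ap2 had a log2 fold change of -0.89 ± 0.43.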

How the data were processed

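Single-embryo cDNA was primed with oligo-dT, amplified and sequenced from one end, so reads lie mostly near 3′ ends. Per the study's methods, the authors aligned reads to mm10 with TopHat2 2.0.6, kept unique best alignments and deposited raw counts per RefSeq gene from HTSeq 0.6.1. There were no molecular identifiers, and strand use and the annotation release are not given in the sources used here. Counts of repeats and the authors' DESeq comparison were not used.

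The rule for the members and the gene lists were drawn up with earlier results of these data known. Counts of f/wt 2 and 3 were summed, the 60% of detected genes with the most counts were kept, and edgeR 4.0.16 (TMM, quasi-likelihood, Benjamini-Hochberg over all genes tested; R 4.3.3) compared 8 Δm/wt with 7 f/wt samples, without covariates. Alternatives included DESeq2 1.42.0, limma-voom 3.58.1, other scalings and filters, embryos 4 to 8 alone, embryos 1 to 3 alone (added after the data were seen) and leaving out each sample. The procedure was tested on simulated data. CPM are counts relative to the TMM-scaled library total. Every tested member is named, and values in every sample are given for called genes that rose, did not overlap or were alone in their group of proteins. Library totals are in the report, and floors of 3 counts cover counting error only.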

Additional observations from a re-analysis of the deposited data

Results flagged for a closer look

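In 7 of 62 groups of samples (31 genes in 2 genotypes), the highest or lowest log2 CPM lay apart from the others by more than Dixon's 95% critical value, which chance gives in about 1 of 20 groups. In f/wt 6, 3 genes were low: Lsm11 at -0.72 (3 counts, next sample 3.40), Lsm3 at -1.47 (1 count, next 1.80) and Snrpb2 at -0.23 (5 counts, next 3.43). In Δm/wt 5, Sf3b2 was at 4.66 (next 6.05), Sf3b6 at -1.03 (2 counts, next 3.54) and Snrpd3 at 6.91 (next 8.63). Lsm3 in Δm/wt 8 was at 3.06 (39 counts, next 4.25). All 7 were the lowest sample of their group, and 4 of them had 5 counts or fewer.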

How the results depend on the processing

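No called member changed direction under the 28 alternatives, and 7 of 16 kept their call in all of them. The number of higher members (8) was 5 with library totals (1893 of 11344 genes tested) and 5 in embryos 1 to 3 (1676 of 10411). The number without overlap (3) was 5 with Hprt, Gapdh and Ppia, where 14.0% of all genes tested did not overlap. It was 1 with no filter on low counts (9.89%) and 6 when Δm/wt 1 and 8 were left out (22.4%). In embryos 4 to 8 it was 8 (24.0%), and in embryos 1 to 3 it was 23 (66.7%). Leaving out 1 sample gave 5 to 8 higher and 8 to 10 lower members, a median log2 fold change of -0.45 to 0.14 and 3 to 6 genes without overlap. In these fits 2153 to 2449 of all genes tested were higher, 2308 to 2712 were lower and 16.7 to 18.9% did not overlap. Embryo numbers do not pair the samples (correlations of deviations -0.07 to 0.09 over 7 pairs, 0 above 0.1, 1 of 7 samples closest to its own number). With the embryo number as a replicate block 5 members were higher and 10 lower (2375 and 2695 of 11344 genes tested), with a member median of -0.72.

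Uncalled members changed sign as follows (log2 fold change): Lsm11 -0.052, Sf3a2 -0.16 and Sf3b1 -0.22 with library totals, Lsm7 0.63 with the 3 reference genes, Lsm5 -0.63, Lsm7 0.86 and Sf3b1 -0.026 with limma-voom, Lsm11 -0.23, Lsm7 0.49 and Sf3b5 0.17 in embryos 4 to 8, Sf3a2 -0.35 and Sf3b1 -0.28 in embryos 1 to 3, Lsm7 0.10 with a term for the embryo sets, Lsm5 -0.72, Lsm7 0.24 and Sf3b1 -0.057 with the block, Sf3a2 -0.051 with f/wt 2 and 3 apart and Lsm7 0.094 without Δm/wt 1 and 8. Without single samples Lsm7 ranged from -0.45 to 0.50, Sf3a2 from -0.13 to 0.58, Sf3b1 from -0.030 to 0.33, Cstf2 from -0.20 to 0.22 (-0.0029 without f/wt 2+3) and Ncbp2 from -0.14 to 0.26. Of other genes, Cstf2 -0.37, Ddx46 -0.14 and Ncbp2 -0.25 changed sign with library totals, Cstf2 -0.048 with limma-voom, Cstf2 -0.11 and Ncbp2 -0.053 without a filter, Patl1 -0.054 in embryos 4 to 8, Ddx46 -0.34, Gemin7 -0.34 and Ncbp2 -0.21 in embryos 1 to 3, Ncbp2 -0.044 with the block and Cstf2 -0.14 without Δm/wt 1 and 8. The causes were not tested. Counts of a few reads limit Lsm3, Lsm5, Snrpf, Sf3a2 and the Δm/wt values of Snrpc, Snrpd2, Snrpb and Lsm12.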
